A study of Mus musculus with 12 samples.

Results

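The proteasome genes of mouse bone marrow-derived macrophages were followed under LPS, and under LPS after contact with HDL or cyclodextrin. Members were the genes whose platform symbol begins with Psm, a letter from a to g and a number, with a probe at a detection p under 0.05 on at least 3 of the 12 arrays, and the probe with the highest mean signal stood for each gene. Of 49 such symbols on the array, 42 passed, out of 9795 genes with a passing probe. The 42 comprised 5 immunoproteasome genes (Psmb8, Psmb9, Psmb10, Psme1 and Psme2), 35 other proteasome genes, and Psmc3ip and Psme3ip1, which share the letters but encode no proteasome part and were kept separate. All members but Psma8, found on 11 arrays, were detected on all 12, so no member passed through 1 group of arrays alone. The 7 that did not pass (Psma1, Psma3, Psma6, Psmb11, Psmc6, Psmd3 and Psmg4) were detected on 0 arrays, which on this platform can reflect the probe as well as the transcript.

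The proteasome is the barrel-shaped protease that degrades ubiquitin-tagged proteins. Its 20S core stacks rings of alpha and beta subunits, and 3 of the constitutive beta subunits, Psmb5, Psmb6 and Psmb7, carry the cutting sites. The 19S cap binds, unfolds and feeds in substrates. Interferon and other inflammatory signals are known to exchange the catalytic subunits for Psmb8, Psmb9 and Psmb10, which gives the immunoproteasome, and to raise Psme1 and Psme2, which together form the 11S activator cap. The peptides made in this way are carried by the Tap1-Tap2 transporter to MHC class I molecules.

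The cells came from C57BL/6 mice aged 9 to 16 weeks and were grown for 8 to 9 days in medium with 20% L929-cell conditioned supernatant, a source of macrophage growth factor. Each of the 4 groups had 3 arrays: PBS cells left without LPS, and PBS, HDL (written nHDL in the labels) and cyclodextrin cells that all received LPS. HDL, the lipoprotein that accepts cholesterol from cells, was given at 300 ug/ml for 24 h, and cyclodextrin, a sugar ring that also draws cholesterol from membranes, at 4% for 4 h. The cells were then washed and given LPS, a bacterial cell wall component, at 10 ng/ml for 6 h. The labels give PBS no contact time, and compound and contact time cannot be told apart. Whether the arrays of a group stem from separate mice or dishes is not stated, so p-values measure only the spread between these arrays, which may be technical, and 3 arrays a group limit the precision.

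The share of probes above background was 37.2 ± 1.25% (SD, n = 3) before LPS. Under LPS it was 36.7 ± 0.265% for PBS, 36.0 ± 0.173% for HDL and 34.3 ± 0.963% for cyclodextrin. Arrays correlated across genes at r = 0.988 to 0.996 within groups, at 0.985 to 0.993 between LPS groups and at 0.858 to 0.882 with against without LPS. All 6 macrophage markers with a passing probe, among them Adgre1, Csf1r and Lyz2, were detected on all 12 arrays. Of the other lists, 4 of 4 T and NK cell, 1 of 1 B cell, 2 of 3 mast cell, 3 of 4 fibroblast, 2 of 4 neutrophil and 2 of 5 dendritic cell markers on the array were detected on no array. Several summed marker levels moved with LPS on the log2 scale, given first for PBS cells. The macrophage sum was 15.55 to 15.63 without and 15.94 to 15.98 with LPS, and the neutrophil sum 9.07 to 9.29 and 9.68 to 9.81. Single genes in a sum moved unequally. Of the macrophage genes Fcgr1 rose by 3.32, Mertk by 1.24 and Adgre1 by 0.39, while Csf1r (0.00), Lyz2 (0.05) and Itgam (-0.18) were not called. Of the neutrophil genes S100a8 rose by 0.65 and S100a9 (0.15) was not called. The mast cell sum was 7.50 to 7.70 without and 6.27 to 6.33 with LPS, with Kit as its only tested gene. Kit was detected only on the 3 PBS arrays without LPS, the group where it was high. For dendritic cells the sum was 7.24 to 7.44 and then 7.39 to 7.72, and for fibroblasts 6.60 to 6.67 and then 6.95 to 7.02. In HDL cells with LPS the sums were 15.87 to 16.00 for macrophages, 9.62 to 10.09 for neutrophils, 6.21 to 6.28 for mast cells, 7.32 to 7.48 for dendritic cells and 6.91 to 7.11 for fibroblasts. In cyclodextrin cells with LPS they were 15.89 to 15.98, 9.77 to 10.07, 6.12 to 6.30, 7.28 to 7.40 and 6.68 to 6.73, in the same order. Dcn, the only tested fibroblast gene, was detected on 3 of 3 PBS and 3 of 3 HDL arrays with LPS but on 0 of 3 with cyclodextrin, a log2 difference from PBS of -0.77 (adjusted p = 0.0129). It was also detected on 0 of 3 PBS arrays without LPS, and LPS raised it there by 1.04 (limma adjusted p = 5.31e-05). Dcn thus met the filter only through the 6 PBS and HDL arrays with LPS, where it was high, so these p-values carry no weight as tests. Its mean was 4.70 in PBS cells without LPS, 5.74 in PBS cells with LPS and 4.97 in cyclodextrin cells with LPS. Their part in the results below was not tested, and fewer cells of a type cannot be told apart from less RNA per cell.

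The stretches around the start sites of the 5 immunoproteasome genes are shown because these genes moved together under LPS. Each window runs from 250 bases before to 50 bases after the start, in RefSeq sequence of build GRCm38.p6, and is written 5′ to 3′ along the gene. The windows lie at chr17:34197945-34198244 (plus strand) for Psmb8, chr17:34187281-34187580 (minus strand) for Psmb9, chr8:105938343-105938642 (minus strand) for Psmb10, chr14:55578244-55578543 (plus strand) for Psme1 and chr14:55591052-55591351 (minus strand) for Psme2, for which the first listed of several starts was taken. Capitals mark matches, on either strand, to the interferon response pattern (GAAA, any 2 bases, GAAA), the STAT-binding GAS pattern TTCNNNGAA and the NF-kB pattern (GGG, any 5 bases, CC), and overlapping matches run together.
Psmb8: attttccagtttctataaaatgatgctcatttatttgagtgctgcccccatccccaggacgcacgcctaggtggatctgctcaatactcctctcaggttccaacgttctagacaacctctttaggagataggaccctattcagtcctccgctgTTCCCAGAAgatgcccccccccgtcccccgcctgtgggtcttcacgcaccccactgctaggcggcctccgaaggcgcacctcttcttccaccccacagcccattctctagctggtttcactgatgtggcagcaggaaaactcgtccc
Psmb9: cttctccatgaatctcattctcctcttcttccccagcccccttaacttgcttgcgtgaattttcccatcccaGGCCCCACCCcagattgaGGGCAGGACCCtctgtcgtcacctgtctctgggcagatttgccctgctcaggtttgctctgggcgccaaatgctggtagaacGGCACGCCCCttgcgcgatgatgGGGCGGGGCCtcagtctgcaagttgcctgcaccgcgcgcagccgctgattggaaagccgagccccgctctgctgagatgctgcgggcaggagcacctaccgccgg
Psmb10: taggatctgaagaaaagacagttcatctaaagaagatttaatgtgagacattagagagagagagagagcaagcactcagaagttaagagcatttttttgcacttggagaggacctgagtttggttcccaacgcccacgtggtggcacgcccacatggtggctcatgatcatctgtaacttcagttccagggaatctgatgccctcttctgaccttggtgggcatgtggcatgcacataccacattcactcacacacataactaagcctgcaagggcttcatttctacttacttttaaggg
Psme1: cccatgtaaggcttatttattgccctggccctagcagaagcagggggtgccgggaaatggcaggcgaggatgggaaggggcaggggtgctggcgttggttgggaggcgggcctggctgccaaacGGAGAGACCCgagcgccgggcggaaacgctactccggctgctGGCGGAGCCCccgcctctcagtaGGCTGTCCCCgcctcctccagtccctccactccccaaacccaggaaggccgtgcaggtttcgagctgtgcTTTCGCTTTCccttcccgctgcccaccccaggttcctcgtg
Psme2: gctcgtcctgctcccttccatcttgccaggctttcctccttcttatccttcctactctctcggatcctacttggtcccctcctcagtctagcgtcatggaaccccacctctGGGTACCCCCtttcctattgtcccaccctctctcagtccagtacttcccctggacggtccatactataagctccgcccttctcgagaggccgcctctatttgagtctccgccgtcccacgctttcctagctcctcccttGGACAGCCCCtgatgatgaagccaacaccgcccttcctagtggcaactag
Psme1 was the only one of these windows with an interferon response match, TTTCGCTTTC from base 10 to base 19 after the start, and Psmb8 the only one with a GAS match, TTCCCAGAA from base -97 to base -89. Windows were found for 35 of the 42 members. The interferon response pattern was in 1 of the 5 immunoproteasome windows, in 3 of the 30 other member windows and in 3.4% of all 32851 windows of this length. The GAS pattern was in 1 of 5, 2 of 30 and 8.3%, and the NF-kB pattern in 3 of 5, 16 of 30 and 50.8%. An antioxidant response pattern, TGANNNNGC, was in 3 of 5, 16 of 30 and 41.3%, and CCAAT in 1 of 5, 10 of 30 and 37.4%. A pattern held by so many windows says little of any single gene, and a window without a match, as for Psmb10, says only that those letters are not within it. The Psmb9 window shares 275 bases with that of Tap1, which is transcribed in the opposite direction from the same stretch.

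LPS raised every immunoproteasome gene. The catalytic subunits Psmb9 and Psmb10 rose 4.82-fold and 4.41-fold, Psme2 rose 2.38-fold, and Psme1 and Psmb8 rose 1.94-fold and 1.93-fold. None of the 7 constitutive beta subunits was called, although Psmb1 missed the threshold narrowly (adjusted p = 0.0504), and the remaining subunits, cap parts and chaperones moved both ways by at most 1.92-fold. Signals below are log2 values after background correction and quantile normalization. A call means that the p from limma, adjusted by Benjamini-Hochberg over the 9795 genes, was under 0.05. Levels of different probes are not comparable, so only changes are compared between genes.

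Psmb9, which replaces Psmb6, read 10.27, 10.39 and 10.59 on the arrays without LPS and 12.70, 12.68 and 12.67 with LPS. Its log2 fold change was 2.27 ± 0.11 SE (adjusted p = 2.43e-10). Psmb10, which replaces Psmb7, read 11.14, 11.09 and 11.14 without LPS and 13.21, 13.32 and 13.26 with it, a change of 2.14 ± 0.11 (adjusted p = 4.16e-10). The 2 groups stood far apart for both genes against a spread within groups of at most 0.16. They ranked 376th and 410th of 9795 genes by log2 fold change. Psmb8, which replaces Psmb5, read 12.66, 12.63 and 12.35 without LPS and 13.69, 13.47 and 13.33 with it. Its change of 0.95 ± 0.12 (adjusted p = 7.98e-06) came with no overlap, as its lowest LPS array was above its highest array without LPS.

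The activator subunits rose as well. Psme1 read 12.29, 12.32 and 12.24 without LPS and 13.23, 13.31 and 13.18 with it (log2 fold change 0.96 ± 0.09, adjusted p = 6.07e-07). Psme2 read 9.72, 9.64 and 9.52 without LPS and 10.95, 10.73 and 10.96 with it (1.25 ± 0.12, adjusted p = 3.18e-07). Neither pair of groups overlapped. The annotation also lists Psme2b, a close relative of Psme2, and whether the Psme2 probe tells them apart was not tested. Second probes gave the same direction: Psmb10 changed by 2.01, Psme1 by 1.12 and Psmb8 by 1.75, all called. The size was therefore uncertain for Psmb8, whose dimmer probe (mean signal 10.50 against 13.20) rose by 1.75 and its brighter probe by 0.95.

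**Figure D1:**
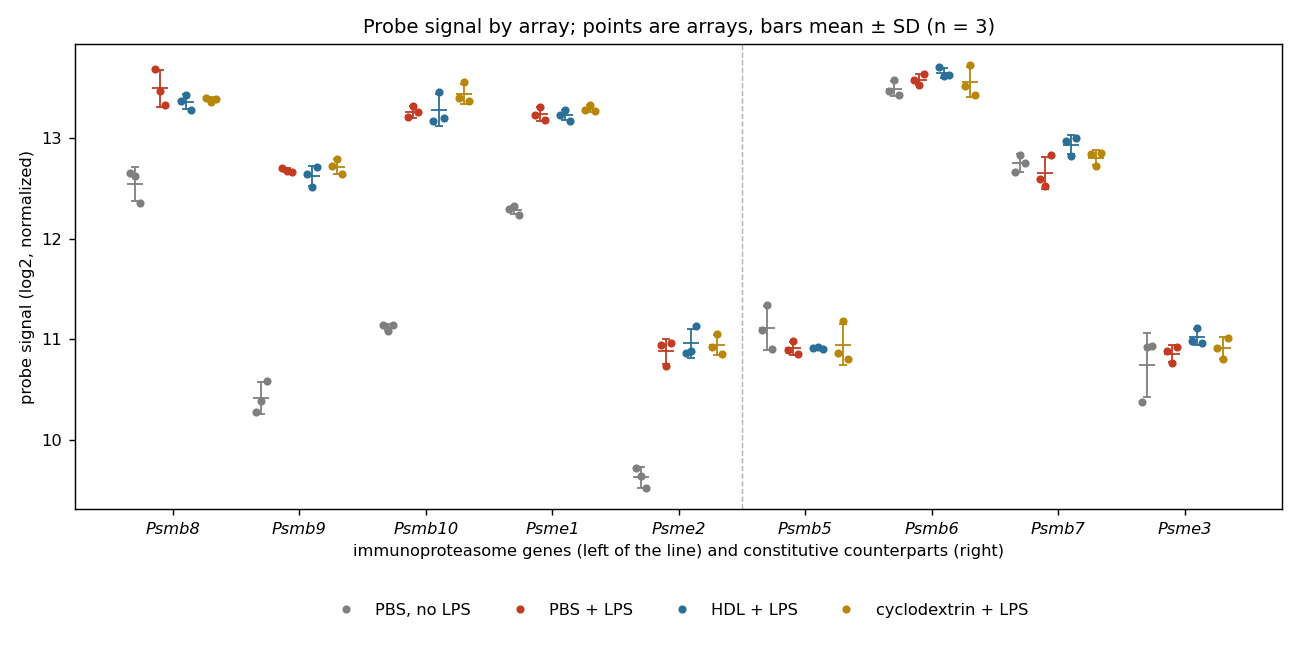
Normalized log2 probe signal (vertical axis) of the 5 immunoproteasome genes and their 4 constitutive counterparts by group, with 1 point per array and bars for mean ± SD (n = 3). For the genes left of the dashed line all 9 LPS arrays lie above the 3 arrays without LPS, and for those to the right the groups lie close together.

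The constitutive counterparts did not pass the test. Psmb5, the chymotrypsin-like subunit, read 11.09, 11.35 and 10.91 without LPS and 10.89, 10.98 and 10.85 with it (log2 fold change -0.21 ± 0.13, adjusted p = 0.19). Psmb6 read 13.47, 13.58 and 13.44 and then 13.58, 13.53 and 13.64 (0.09 ± 0.11, adjusted p = 0.487). In both genes the groups overlapped. Psmb7 read 12.67, 12.84 and 12.76 and then 12.60, 12.52 and 12.83 (-0.10 ± 0.11, adjusted p = 0.447). Psme3, a nuclear relative of the activator subunits, read 10.37, 10.92 and 10.93 and then 10.88, 10.76 and 10.92 (0.11 ± 0.14, adjusted p = 0.519). Their 95% intervals ran from 0.71-fold to 1.05-fold for Psmb5, 0.91-fold to 1.25-fold for Psmb6, 0.79-fold to 1.10-fold for Psmb7 and 0.88-fold to 1.34-fold for Psme3, so small changes were not resolved. Psmb5 was called lower, at -0.38, when arrays were scaled to a common median instead.

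Within each array, the immunoproteasome subunit was set against its counterpart. The Psmb9 to Psmb6 log2 ratio was -3.08 ± 0.20 (SD, n = 3) without LPS and -0.90 ± 0.06 with LPS, a 4.52-fold increase of the ratio. For Psmb10 to Psmb7 it went from -1.63 ± 0.11 to 0.61 ± 0.18, a 4.74-fold increase, and for Psmb8 to Psmb5 from 1.43 ± 0.14 to 2.59 ± 0.18, a 2.23-fold increase. These shifts show unequal change of the 2 probes, not which transcript was more abundant. Psme1 to Psme3 rose 1.80-fold and Psme2 to Psme3 2.21-fold in the same measure. In all 5 ratios every LPS array was above every array without LPS, and the two-sided exact permutation p was 0.1, the smallest that 3 against 3 arrays allow (0.333 after adjustment over the 20 ratio tests), so this test could not reach the threshold.

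**Figure D2:**
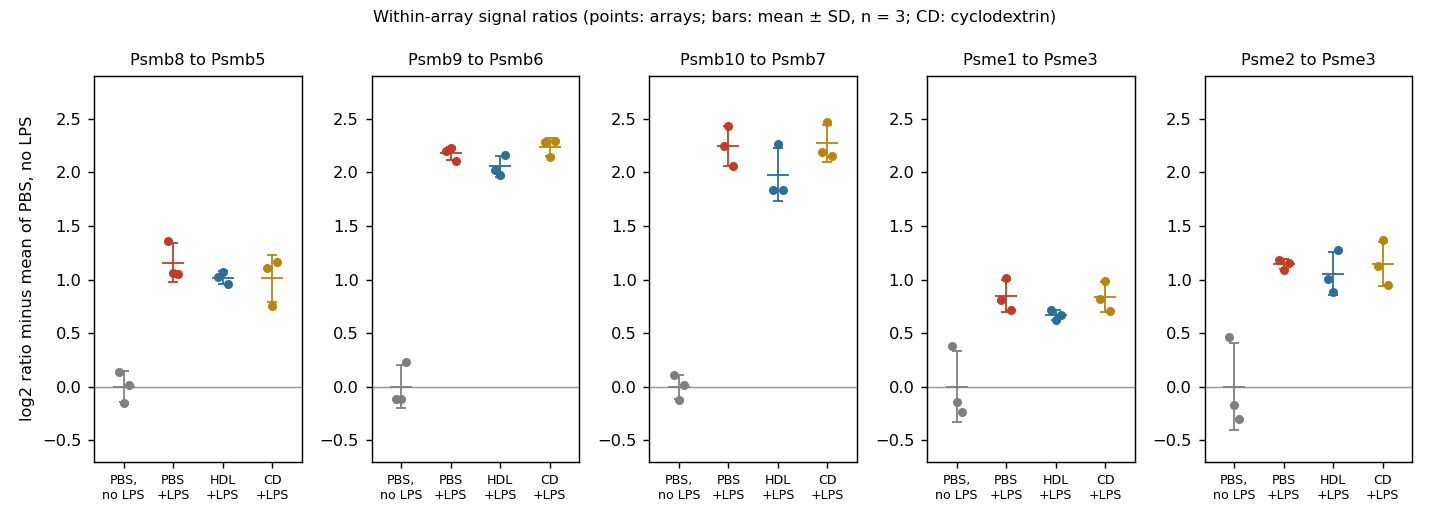
Within-array log2 ratio of each immunoproteasome gene to its constitutive counterpart, minus the mean ratio of the arrays with PBS and no LPS (vertical axis), by group, with 1 point per array and bars for mean ± SD (n = 3). All 9 LPS arrays lie above the 3 arrays without LPS in each panel, while the 3 LPS groups lie together.

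Across all 42 members, 11 were higher and 12 lower under LPS. The shares called over all genes were 22.1% higher and 38.4% lower, 60.5% in all. Outside the immunoproteasome 6 of the 35 proteasome genes were higher, 11 lower and 18 not called, with a median log2 fold change of -0.17 beside -0.14 over all genes. Those counts are thus near or below the shares over all genes. The groups did not overlap for 27 of the 42 members, beside 65.2% of all genes, and 26 had an unadjusted p under 0.05, beside 63.8%. The immunoproteasome genes were called higher, 5 of 5, in every processing setting tried, and their smallest log2 fold change stood 0.96 to 1.36 above the median of all genes. The count of lower members outside it depended on the scaling, as 14 were lower with median scaling, where the median of all genes was -0.42, and 5 with cyclic loess, where it was -0.06. Over all settings the count ran from 5 to 15.

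**Figure D3:**
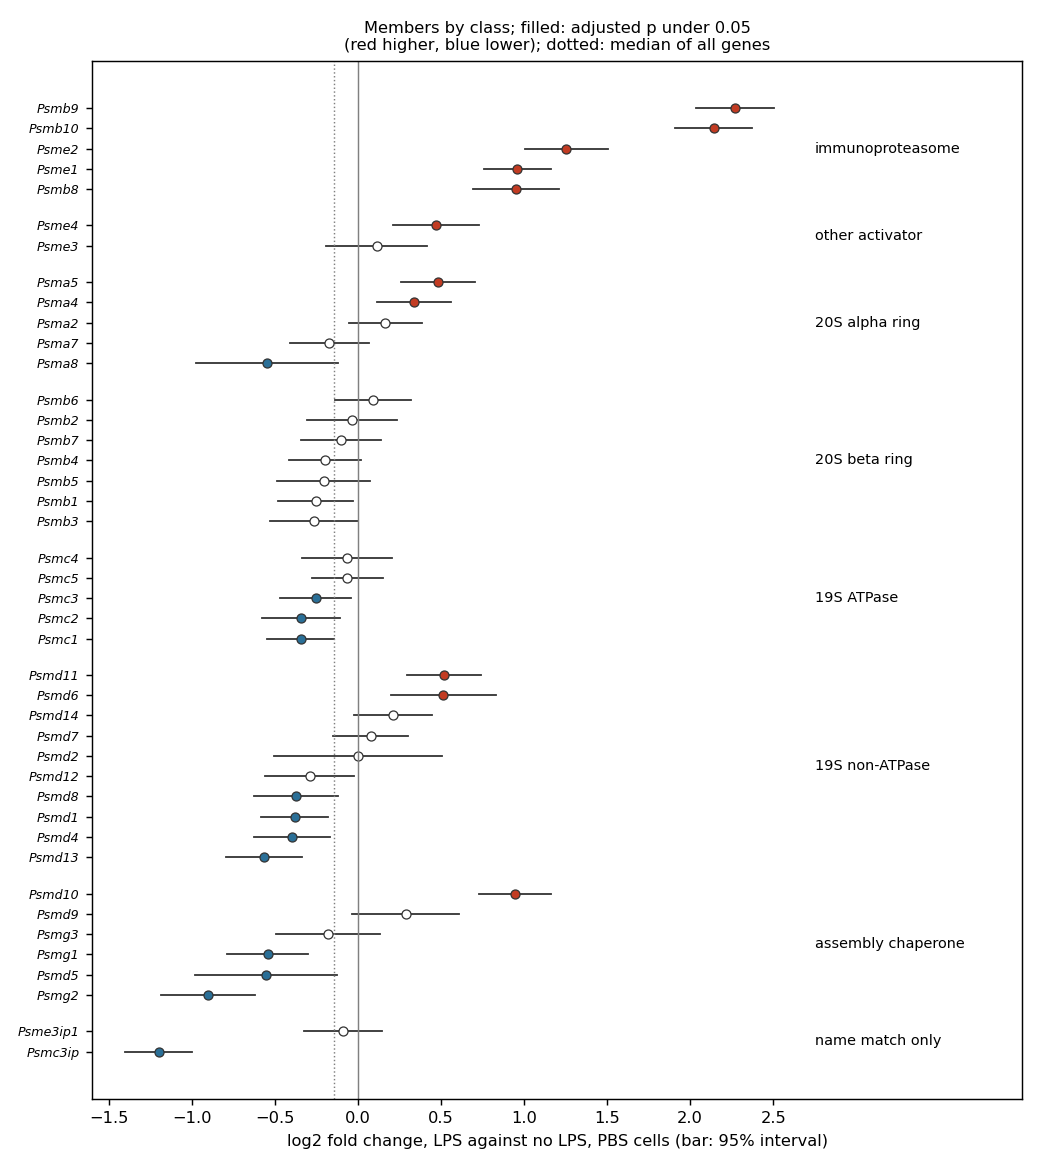
Log2 fold change, LPS against no LPS in PBS cells (horizontal axis), of the 42 members by class, with 95% intervals as bars. Filled points are called (red higher, blue lower), open points are not, the solid line marks 0 and the dotted line the median of all genes at -0.14. The 5 immunoproteasome genes lie at 0.95 to 2.27, and the other classes lie on both sides of 0.

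The alpha ring, which gates the core, was mixed. Psma5 rose by 0.48 ± 0.10 (adjusted p = 0.000959) and Psma4 by 0.34 ± 0.10 (0.0118). Psma5 read 13.40, 13.13 and 13.40 without LPS and 13.77, 13.75 and 13.86 with it, with no overlap. Psma8, in mammals known as the alpha subunit of the testis proteasome, was dim, with signals of 5.88, 6.29 and 6.19 and then 5.22, 5.56 and 5.95. It fell by 0.55 ± 0.20 (adjusted p = 0.0290), its groups overlapped, and the call was lost when any 1 of 4 arrays was left out (PBS without LPS 2 or 3, PBS with LPS 7 or 8). Psma2 and Psma7 were not called. In the beta ring 0 of 7 were called by limma, beside 60.5% of all genes. At an unadjusted p under 0.05 there were 2 of 7, beside 63.8%, and log2 fold changes ran from -0.27 to 0.09. Psmb1, Psmb3 and Psmb4, beta subunits without a cutting site, lay near the threshold and are named after their values were seen. Psmb1 stood at -0.25 (adjusted p = 0.0504) and was called lower in 10 of 13 processing alternatives, Psmb3 in 5 and Psmb4 in 1.

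In the 19S cap, 3 of the 5 substrate-unfolding ATPases with a passing probe were called lower and 0 higher. Over all genes 38.4% were called lower and 22.1% higher. Psmc1 fell by 0.34 ± 0.09 (adjusted p = 0.00518), and Psmc2 and Psmc3 fell by 0.34 and 0.25, while Psmc4 and Psmc5 both stood at -0.06 and were not called. Among the 10 non-ATPase subunits with a passing probe 2 rose and 4 fell, which is near those shares. The lid subunits Psmd11 and Psmd6 rose by 0.52 ± 0.10 (adjusted p = 0.00059) and 0.51 ± 0.15 (0.0078). The lid subunit Psmd13 fell by 0.56 ± 0.11 (adjusted p = 0.000346), Psmd4, a ubiquitin receptor, by 0.40 ± 0.11 (0.00496), Psmd1, a scaffold of the cap, by 0.38 ± 0.09 (0.00293) and Psmd8 by 0.37 ± 0.12 (0.0136). Psmd13 read 12.79, 12.82 and 12.70 without LPS and 12.24, 12.19 and 12.18 with it, well apart. Psmd14, the deubiquitinase of the lid, stood at 0.21 and was not called. The calls of Psmd4, Psmd1, Psmd8 and all 3 ATPases (Psmc1, Psmc2 and Psmc3) were lost with cyclic loess, those of Psmd11, Psmd6 and the activator Psme4 with median scaling, and that of Psmd8 also without PBS with LPS replicate 7. Averaging all probes of a gene ended the calls of Psmd1, Psmd6 and Psmc2. The call of Psmc3 was also lost with only the 2 groups compared and in 7 of the 12 fits that left out 1 array (PBS without LPS 1 or 2, PBS with LPS 7, 8 or 9, HDL 16 or cyclodextrin 24). That of Psmc2 was lost without PBS without LPS replicate 1 or PBS with LPS replicate 7, and that of Psma4 without PBS with LPS replicate 9. Psmd12, a lid subunit not called here, was called lower in 8 of the 13 alternatives. Psmc2, Psmc3, Psma4 and Psmd12, named here to complete the counts, were picked after their values were seen.

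Genes of assembly and of other activators also went both ways. Psmd10, known as gankyrin and a chaperone of cap assembly, read 10.48, 10.54 and 10.49 without LPS and 11.42, 11.33 and 11.58 with it, a rise of 0.94 ± 0.10 (adjusted p = 1.57e-06). That is about the size of the rise in Psmb8 and Psme1. Its other passing probes rose by 1.06 and 0.99. Psmg2, which with Psmg1 helps to build the alpha ring, read 9.73, 9.33 and 9.38 and then 8.81, 8.47 and 8.46, a fall of 0.90 ± 0.13 (adjusted p = 3.42e-05). Psmg1 fell by 0.54 ± 0.11 (adjusted p = 0.000781), from 8.68, 8.97 and 8.95 to 8.33, 8.38 and 8.26, again without overlap. Psmg3 stood at -0.18 ± 0.15 (adjusted p = 0.302) and was called lower, at -0.54, with median scaling. Psmd5, a chaperone of the cap base, read 7.95, 7.47 and 7.07 without LPS and 7.01, 6.89 and 6.92 with it. It fell by 0.55 ± 0.20 (adjusted p = 0.0271), but by 0.33 and uncalled without PBS without LPS replicate 1, and the call was also lost without replicate 2 of that group or without PBS with LPS replicate 8 or 9. Without a detection filter neither Psmd5 nor Psma8 was called, nor was Psmd5 with array weights. Psme4, an activator that caps the core without ubiquitin, rose by 0.47 ± 0.12 (adjusted p = 0.0035). Of the name matches, Psmc3ip, a factor of meiotic recombination, fell by 1.20 ± 0.09 (adjusted p = 5.21e-08), and Psme3ip1 stood at -0.09 and was not called.

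Several passing probes were available for 22 members. Of the 11 called under LPS among these, 7 had every other probe called the same way. In the exceptions not every other probe was called. Since the brightest probe was used, other probes are dimmer by rule, also in the genes whose probes agreed. For Psmg2 the other probes changed by -0.83, called, and by -0.22, not called, and for Psmd1 by -0.27 and 0.02, neither called. The other probe of Psmd6 stood at 0.29 and that of Psmc2 at -0.01, neither called. Psmd7, uncalled by its brightest probe at 0.08, had a second probe called higher at 0.48.

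Among other genes of the proteasome and ubiquitin pathway on a fixed list, 14 were tested, of which 2 were higher and 5 lower under LPS, with a median of -0.14. Over all genes 22.1% were higher and 38.4% lower, with a median of -0.14, so these counts are near or below those shares. The higher genes were Nploc4 (0.53), a partner of the Vcp unfoldase, and Ecpas (0.49), a proteasome-binding scaffold. The lower genes were Zfand2a (-1.87), which encodes a stress-induced proteasome-binding protein, the proteasome deubiquitinase Uchl5 (-0.72), the ubiquitin ligase Ube3c (-0.54), the shuttle Ubqln1 (-0.31) and the cap subunit Sem1 (-0.30). Pomp, the chaperone that matures the core, stood at -0.04 ± 0.12 (adjusted p = 0.784). Of 11 peptide loading genes 6 were higher and 1 lower, with a median of 0.95. The higher genes included Tap1 at 4.18 ± 0.18 and Tap2 at 2.07 ± 0.16, which lie next to Psmb9 and Psmb8 in the genome. Nlrc5, the class I transactivator, rose by 3.91 ± 0.12. Tapbpl (2.72), Tapbp (1.72) and H2-K1 (0.95) were also higher. The lower gene was Pdia3 (-0.39). B2m (0.18), H2-D1 (0.18), Erap1 (0.17) and Calr (-0.05) were not called. All 5 tested interferon regulators were higher, with Irf1 at 3.19 ± 0.12 and Irf9, which is close to Psme1 and Psme2, at 1.39 ± 0.14. Ifnb1 was detected on 0 of 3 arrays without LPS and on 3 of 3 with it.

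Prior contact with HDL changed no member detectably under LPS. By limma 0 of 42 members were called higher and 0 lower in HDL against PBS cells, where 1.90% of all genes were called, 0.796% higher and 1.10% lower. At an unadjusted p under 0.05 there were 6 members, beside 17.8% of all genes. The 95% intervals of the 5 immunoproteasome genes lay between 0.763-fold and 1.26-fold, and those of all 42 members between 0.601-fold and 1.59-fold. A change of 2.00-fold was thus outside the interval of every member. So was any rise above 1.59-fold or fall below 0.601-fold, while changes within those limits were not excluded for every member.

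With HDL and LPS, Psmb9 read 12.65, 12.52 and 12.72, a log2 difference from PBS with LPS of -0.06 ± 0.11 (adjusted p = 0.833). Psmb10 read 13.17, 13.46 and 13.21 (0.02 ± 0.11, adjusted p = 0.949) and Psmb8 13.37, 13.43 and 13.29 (-0.13 ± 0.12, adjusted p = 0.596). All overlapped the PBS arrays with LPS. Psme1 read 13.24, 13.28 and 13.18 (-0.01 ± 0.09, adjusted p = 0.962) and Psme2 10.87, 10.89 and 11.13 (0.08 ± 0.12, adjusted p = 0.758). Counterparts differed by 0.00 for Psmb5, 0.07 for Psmb6, 0.28 for Psmb7 (adjusted p = 0.201) and 0.17 for Psme3, and the regulators by -0.05 for Psme4, 0.09 for Psmg1, -0.07 for Psmg2 and -0.13 for Psmg3. In the ratios, only Psme1 to Psme3 separated the groups, 0.884-fold with HDL (two-sided exact permutation p = 0.1, adjusted 0.333). The gap was very small, as the highest HDL array had a log2 ratio of 2.258 and the lowest PBS array with LPS 2.260.

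Cyclodextrin gave the same count. By limma 0 of 42 members were called higher and 0 lower against PBS under LPS, where 5.08% of all genes were called, 2.38% higher and 2.71% lower. The number at an unadjusted p under 0.05 was 2, beside 19.1% of all genes. Intervals of the immunoproteasome genes lay between 0.776-fold and 1.33-fold and those of all members between 0.657-fold and 1.63-fold. Psmb10 read 13.40, 13.56 and 13.38, all above the PBS arrays with LPS, but its difference of 0.18 ± 0.11 did not pass (adjusted p = 0.396). Psmb9 read 12.73, 12.79 and 12.64 (0.04 ± 0.11, adjusted p = 0.905), Psmb8 13.40, 13.37 and 13.40 (-0.11 ± 0.12, adjusted p = 0.684), Psme1 13.28, 13.33 and 13.27 (0.05 ± 0.09, adjusted p = 0.831) and Psme2 10.92, 11.05 and 10.85 (0.06 ± 0.12, adjusted p = 0.831). Differences were 0.04 for Psmb5, -0.02 for Psmb6, 0.16 for Psmb7 and 0.06 for Psme3, and 0.00 for Psme4, 0.18 for Psmg1, 0.16 for Psmg2 and 0.00 for Psmg3. On the same arrays Ifnb1 was higher by 0.81 ± 0.15 (adjusted p = 0.00868) and Irf1 by 0.44 ± 0.12 (adjusted p = 0.0487) than in PBS cells with LPS. These were the 2 called of 5 tested interferon regulators, while Irf8 (0.55), Irf9 (0.01) and Stat2 (-0.16) were not called. Of 11 peptide loading genes 1 was called, Erap1, higher by 0.52 (limma adjusted p = 0.0129). It was detected on 3 cyclodextrin arrays, 1 HDL array and 0 of the PBS arrays with LPS. Erap1 thus met the filter only through the group where it was high. Its means were low, 5.67 against 5.15, so this call carries no weight.

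**Figure D4:**
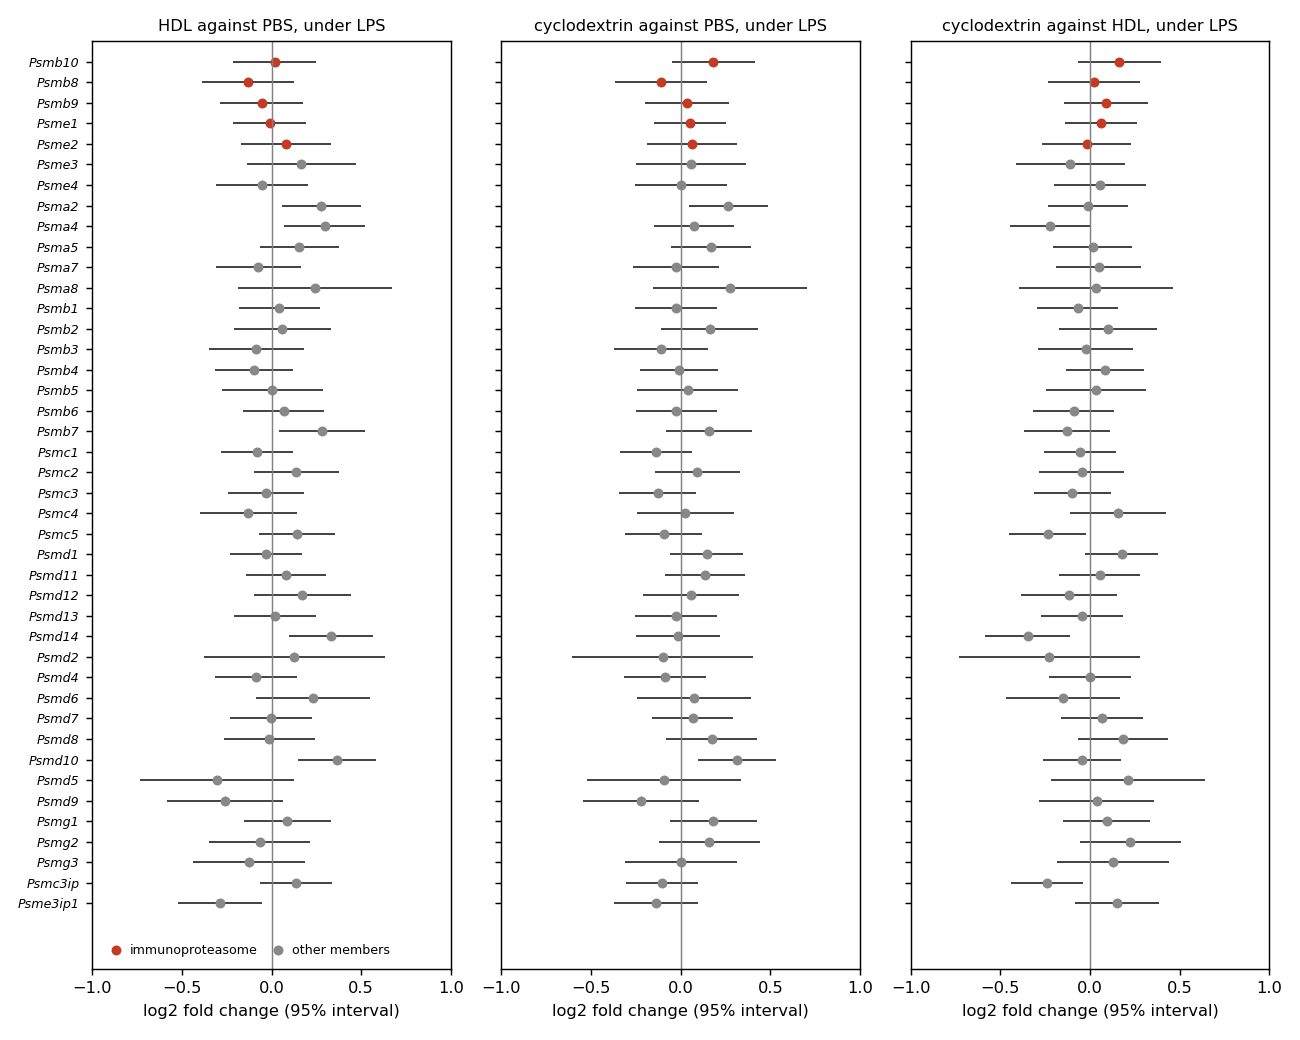
Log2 fold changes (horizontal axis) with 95% intervals of the 42 members in the 3 comparisons under LPS, with immunoproteasome genes in red and other members in grey. No member was called in any panel, and all points lie between -0.35 and 0.36.

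Psmd10 came nearest to a call and, like the genes in the next sentences, is singled out after its values were seen. Its arrays read 11.42, 11.33 and 11.58 in PBS, 11.86, 11.75 and 11.81 in HDL and 11.84, 11.73 and 11.71 in cyclodextrin cells, all with LPS. Both treated groups lay above the PBS group, by 0.36 ± 0.10 for HDL (adjusted p = 0.0889) and 0.32 ± 0.10 for cyclodextrin (adjusted p = 0.0937), and these comparisons share the PBS arrays. It was called higher in 5 processing alternatives for HDL and in 3 for cyclodextrin. The other probes of Psmd10 gave 0.26 and 0.22 for HDL and 0.26 and 0.27 for cyclodextrin, none called. Psma2, an alpha ring subunit, stood at 0.28 and 0.26 and Psma4 at 0.30 and 0.07, in the same order. Of the list of other pathway genes, Usp14, the deubiquitinase of the cap, was higher with HDL by 0.60 ± 0.13 (adjusted p = 0.04) and stood at 0.40 with cyclodextrin (adjusted p = 0.107).

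Groups that did not overlap were found for 13 of 42 members with HDL, beside 26.0% of all genes, for 9 with cyclodextrin, beside 26.5%, and for 7 between the compounds, beside 24.4%. Cyclodextrin and HDL were given at different doses and times, so their values stand side by side. Set against HDL, cyclodextrin gave 0 members higher and 0 lower by limma, where 2.71% of all genes were called, 1.19% higher and 1.51% lower, and 3 members had an unadjusted p under 0.05, beside 18.3%. The immunoproteasome genes differed by 0.16 for Psmb10, 0.09 for Psmb9, 0.06 for Psme1, 0.02 for Psmb8 and -0.02 for Psme2, with intervals between 0.830-fold and 1.32-fold. The lowest was Psmd14 at -0.35 ± 0.11 (adjusted p = 0.11), which read 10.78, 10.54 and 10.89 with HDL and 10.36, 10.43 and 10.38 with cyclodextrin, and its other probe stood at -0.02. All members lay between 0.602-fold and 1.56-fold in their intervals.

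The spread of the members within groups is given without a value over all genes beside it. Closeness within groups is partly built in by the placing of decimal marks described below. The median SD over the 42 members was 0.10 before LPS and, among the LPS groups, 0.08 for PBS, 0.07 for HDL and 0.10 for cyclodextrin. The widest spread in each group was that of Psmd2 without LPS (0.47) and with HDL (0.36), and that of Psma8 in PBS cells with LPS (0.36) and with cyclodextrin (0.31). These were the dimmest members, with means in those groups of 6.23 and 6.36 for Psmd2 and 5.58 and 5.85 for Psma8.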

How the data were processed

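RNA was hybridized to 12 Illumina bead arrays, 1 per sample. Per the submitters' processing notes, the authors exported signals with GenomeStudio. The deposited tables hold a signal and, per the file headers, a detection p-value per probe, and the authors' processed values. With decimal marks put back as described below, the processed values had a median of 73.7 on every array on a linear scale. They ran in the order of each array's signal. Signals and processed values were placed with the help of each other, so this order is partly built in. The alternative fit on the processed values is likewise not independent. How the authors normalized or centred the processed values is not stated in the sources used here.

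Most deposited values had lost their decimal mark. Of 543372 signals, 10998 (2.02%) kept it, 418808 (77.1%) were placed by their digits or detection p, and 113566 (20.9%) by the curve relating signals to the authors' values on each array. Among 2042 hidden known values 1 was placed wrongly, but the rule was adjusted while watching this test, so it is no independent error rate. The curve placed 559 (54.2%) of the values of the 86 probes of these genes, and 0 of those probes lay over 5-fold from the rest of its group on any array. Placement by the curve also weighed how near a value lay to the same probe on the other arrays of its group. That closeness within groups is therefore partly built in and is no independent check. The planned test assumed intact intensities and was kept.

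Signals were corrected and quantile normalized with neqc (limma 3.58.1, R 4.3.3, offset 16, detection p in place of control probes). Of 45281 probes 15497 with a detection p under 0.05 on at least 3 arrays had 1 gene symbol, taken from the platform annotation, and the brightest stood for each of 9795 genes. A linear model of 4 group means was fitted to all arrays with lmFit and eBayes (two-sided; degrees of freedom 8 residual, 5.86 prior), with 4 contrasts adjusted by Benjamini-Hochberg over all genes, and was tested on simulated data. Calls of second probes were adjusted over all passing probes. Rebuilding and motif searches ran in Python 3.11.15. Alternatives changed the background, normalization, offset, filter, probe, values and variance model or left out arrays.

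Members and lists were chosen with earlier results of these data known. Named genes were the immunoproteasome genes, their counterparts, Psme4, Psmg1 to Psmg3, the 12 other called members with the largest change, and fixed lists; exceptions are stated.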

Additional observations from a re-analysis of the deposited data

How the results depend on the processing

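Called members under LPS numbered 11 higher (8 to 13 over 13 alternatives, 10 to 12 leaving out 1 array) and 12 lower (6 to 16, and 8 to 13), the lowest being 6 lower with cyclic loess. Called higher with HDL were 0 members, and 1 (Psmd10) with no background correction, normexp with offset 50, the authors' processed values, array weights or an intensity trend. Cyclodextrin likewise went from 0 to 1 higher (Psmd10) with no background correction, array weights or a trend, and against HDL from 0 to 2 lower (Psmd14 and Psmc3ip) with median scaling. The other counts were 0 in all alternatives, and all 6 counts under LPS with HDL or cyclodextrin were 0 when any 1 array was left out. Of 1599 recomputed values of named genes, 1576 kept their side of the threshold, 21 lost and 2 gained a call. Reversal of a value called in either fit occurred in 0. Uncalled values could change sign and still count as kept. Psmb7 under LPS, for example, stood at -0.10 and ran from -0.12 to 0.10 over the alternatives. The causes were not tested. Ratios involve no model, so the fits on 2 groups only, with array weights and with a trend do not touch them. The log2 ratio changes under LPS ranged over 2.15 to 2.33 (Psmb10 to Psmb7), 1.05 to 1.23 (Psmb8 to Psmb5), 2.13 to 2.31 (Psmb9 to Psmb6), 0.73 to 1.03 (Psme1 to Psme3) and 1.00 to 1.38 (Psme2 to Psme3) leaving out 1 array. A block for the bead chip was not run, as labels and columns give no chip. No paired analysis was possible because the replicate numbers in the labels are not shared between groups.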
